A study of Mus musculus with 24 samples.

Results

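The enzymes that burn fatty acids in mitochondria and feed the citric acid cycle were followed as 1 module of 38 genes in cultured mouse white adipocytes. The members were taken by gene symbol as known enzymes of these pathways and, where the enzyme has several, their subunits. They comprised 21 genes of fatty acid oxidation and 17 of pyruvate entry and the citric acid cycle, out of 53465 genes in the count table. All 38 were found in the table and all 38 passed the filter on low counts.

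Long-chain fatty acids are activated to acyl-CoA by Acsl1, carried into the mitochondrion as carnitine esters by Cpt1a, Slc25a20 and Cpt2, and shortened in repeated rounds of dehydrogenation, hydration, renewed dehydrogenation and thiolysis. The acetyl-CoA released, and that made from pyruvate by pyruvate dehydrogenase, is oxidised in the citric acid cycle, while pyruvate carboxylase (Pcx) makes the oxaloacetate that the cycle needs to accept it. White adipocytes mainly store fat, and use part of this machinery to make citrate for fatty acid synthesis; brown and beige adipocytes hold more mitochondria and burn more fat.

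Poly(A) RNA was sequenced from adipocytes differentiated in culture from the stromal vascular fraction of epididymal (eWAT) and inguinal (iWAT) white fat. The cells came from control mice (Cont, Senp2 flox/flox) or from aKO mice, which carry the same floxed Senp2 alleles with Adipoq Cre. Senp2 is a protease that removes the small protein SUMO from other proteins. Cultures received the siRNA labelled siNS, a name the labels do not explain, or siC/EBPb, an siRNA against the transcription factor C/EBPβ (gene Cebpb), which acts early in fat cell formation. The 2 depots, 2 genotypes and 2 siRNAs gave 8 groups of 3 libraries. Every group carries floxed Senp2 and received an siRNA. The Adipoq promoter drives Cre in differentiated adipocytes, so cells in these cultures that had not differentiated keep Senp2. The age of the mice is not given, and the labels do not say whether replicates were separate animals or cultures, so p-values measure the spread between these libraries, which may be technical.

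Gene counts per library ranged from 8435494 to 15388744 in 23 libraries and came to 603585 in iWAT aKO siNS replicate 2, in which 93.3% of reads had not aligned, against 16.8% to 27.6% elsewhere. In this shallow library 33 of the 38 members were the lowest of their group, 4 the highest and 1 in the middle, and the median member stood at 63.5% of the mean of the other libraries of its group, so a log2 fold change from an iWAT comparison that uses it is followed in square brackets by the value without it, and counts of members called are given both ways. Cebpb was at 103 to 181 CPM (a gene's count relative to the effective size of its library) in the siNS libraries and at 12.7 to 57.3 in the siC/EBPb libraries, with no overlap. Senp2 was at 43.7 to 57.4 CPM over all libraries, and Cont and aKO overlapped. The labels do not say which part of Senp2 is deleted. Its whole-gene count may include reads outside that part and reads of cells without Cre, and neither was measured. The count therefore does not check the genotype. Of the 20 mature adipocyte markers none was at 0 in any group, and Adipoq, the adipocyte hormone whose promoter drives Cre, was at 58.2 to 187 CPM. The 14 progenitor and fibroblast markers summed to 37027 to 49571 CPM outside the shallow library, where they summed to 85989.

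Levels between genes were compared as RPKM, which is CPM divided by the length of the transcript in kilobases, as the mean of the 8 groups. The citric acid cycle enzymes headed the order, with Mdh2, the mitochondrial malate dehydrogenase, at 119.7 RPKM and citrate synthase (Cs), which joins acetyl-CoA to oxaloacetate, at 81.04. Pdha1, the catalytic E1 alpha subunit of pyruvate dehydrogenase, followed at 73.2, the cytosolic malate dehydrogenase Mdh1 at 59.7, Pcx at 56.02 and Acsl1 at 55.4. The lowest were Etfb, the beta subunit of the electron transfer flavoprotein that takes electrons from the acyl-CoA dehydrogenases, at 7.76 RPKM, and Ehhadh, the bifunctional enzyme of peroxisomes, at 2.71. The other 2 proteins of the flavoprotein system were higher, Etfa at 51.3 and Etfdh at 23.6. For Etfb only 486 of 1164 exon bases (41.8%) lie in no other gene, and 617 are shared on the same strand with the predicted gene Gm45233. Etfb counts were 47 to 122 per library outside the shallow one, and Gm45233 had 0 counts in all libraries. The sources do not say how bases shared by 2 genes were counted. A further 10 members overlap exons of a gene on the other strand (Acadvl, Hadha, Echs1, Eci2, Acsl1, Crat, Etfdh, Idh3b, Mdh1 and Pdha1). Which strand setting HTSeq ran with is not given in the sources used, and reads of the overlapping stretches cannot be told apart.

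Most members differed little between groups. The ratio of the highest to the lowest group mean of CPM, with the shallow library left out of its group, had a median of 1.32 over the 38 members and exceeded 1.5 in 8 and 2 in 2. With all 3 libraries of that group the median was 1.24, and 6 exceeded 1.5 and 3 exceeded 2. Acsl1 had a ratio of 3.56 without the shallow library and 3.37 with it, Pcx 2.32 and 2.35, and Etfb 1.96 and 2.26. Without it they were followed by Acaa2, the mitochondrial 3-ketoacyl-CoA thiolase, at 1.62 and Idh2, the NADP-dependent isocitrate dehydrogenase of mitochondria, at 1.60. Sucla2, a subunit of succinyl-CoA synthetase, had the lowest ratio without it, at 1.13. Within eWAT the aKO siNS group had the highest mean of the 4 groups for 29 members and the lowest for 0. Within iWAT, without the shallow library, it was highest for 33 and lowest for 0. With all 3 libraries, iWAT aKO siNS instead had the lowest mean of all 8 groups for Acadvl, Mdh2, Slc25a20 and Sucla2. It then had the highest of all 8 for Pcx, Etfb, Ogdh, Crat and Hadhb.

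In the GRCm38 annotation the gene bodies of some members named below were Acsl1 (ENSMUSG00000018796, chromosome 8, 46471037 to 46536051, plus strand), Pcx (ENSMUSG00000024892, chromosome 19, 4510472 to 4621752, plus strand), Acads (ENSMUSG00000029545, chromosome 5, 115110299 to 115119346, minus strand), Pdhb (ENSMUSG00000021748, chromosome 14, 8165996 to 8173025, minus strand), Etfb (ENSMUSG00000004610, chromosome 7, 43444083 to 43457800, plus strand) and Cpt2 (ENSMUSG00000028607, chromosome 4, 107903981 to 107923610, minus strand).

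The promoters of 4 members are shown because these genes carried the comparisons below: Pdhb and Acads were higher in aKO cells with siNS in both depots, and Acsl1 and Pcx fell most with siC/EBPb. The stretches lie before the transcript start in RefSeq annotation of GRCm38.p6, directly before it except for Pdhb, and are written 5′ to 3′ on the gene's strand. Capitals mark matches to the C/EBP element TTGCNNAA, searched on both strands.
Pdhb, chr14:8173026-8173242, minus strand, 217 bases: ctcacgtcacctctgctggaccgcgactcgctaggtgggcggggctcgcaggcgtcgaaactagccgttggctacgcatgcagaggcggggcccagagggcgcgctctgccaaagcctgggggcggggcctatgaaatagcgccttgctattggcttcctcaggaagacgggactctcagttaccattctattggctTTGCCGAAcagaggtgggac
Acads, chr5:115119347-115119596, minus strand: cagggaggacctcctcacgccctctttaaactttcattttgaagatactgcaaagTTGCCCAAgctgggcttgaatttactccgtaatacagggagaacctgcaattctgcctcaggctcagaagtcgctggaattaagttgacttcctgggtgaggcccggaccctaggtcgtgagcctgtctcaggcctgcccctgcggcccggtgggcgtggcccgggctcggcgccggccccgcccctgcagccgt
Acsl1, chr8:46470787-46471036, plus strand: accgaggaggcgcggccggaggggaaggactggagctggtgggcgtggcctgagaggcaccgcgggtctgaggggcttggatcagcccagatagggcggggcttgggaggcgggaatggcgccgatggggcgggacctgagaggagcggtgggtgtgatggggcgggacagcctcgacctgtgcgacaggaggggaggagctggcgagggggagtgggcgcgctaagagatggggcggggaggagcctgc
Pcx, chr19:4510222-4510471, plus strand: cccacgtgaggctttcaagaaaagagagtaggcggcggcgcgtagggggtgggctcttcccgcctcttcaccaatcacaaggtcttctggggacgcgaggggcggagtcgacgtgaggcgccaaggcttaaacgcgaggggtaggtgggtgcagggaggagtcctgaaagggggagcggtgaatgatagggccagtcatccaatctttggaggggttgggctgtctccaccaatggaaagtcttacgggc
The match in Pdhb, the E1 beta subunit of pyruvate dehydrogenase, lay 53 to 46 bases before the start. The 33 bases nearest that start lie within the gene in the GENCODE annotation and are not printed. The match in Acads, the short-chain acyl-CoA dehydrogenase, lay 195 to 188 bases before its start. Acsl1 and Pcx held no such letters in these windows. A further promoter listed for each of them, not printed, held none either.

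Of the 38 members, 34 were matched in the promoter table, with 41 promoters. The C/EBP element stood in promoters of 4 members, Acads, Dld, Ogdh and Pdhb, and in 5 of the 41 promoters, against 9.56% of 32851 promoters of the same length. Overlapping promoters of Ogdh hold the same site, which therefore enters the 5 more than once. The element TCAAGGTCA of the estrogen-related receptors stood in 0 member promoters and in 0.387% of all. A direct repeat of AGGTCA with 1 base between, the DR1 element bound by PPAR and RXR, stood in 0 member promoters and in 0.0335% of all. The median GC content was 59.6% in the member promoters and 52.4% in all. These matches describe letters and say nothing of binding.

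**Figure D1:**
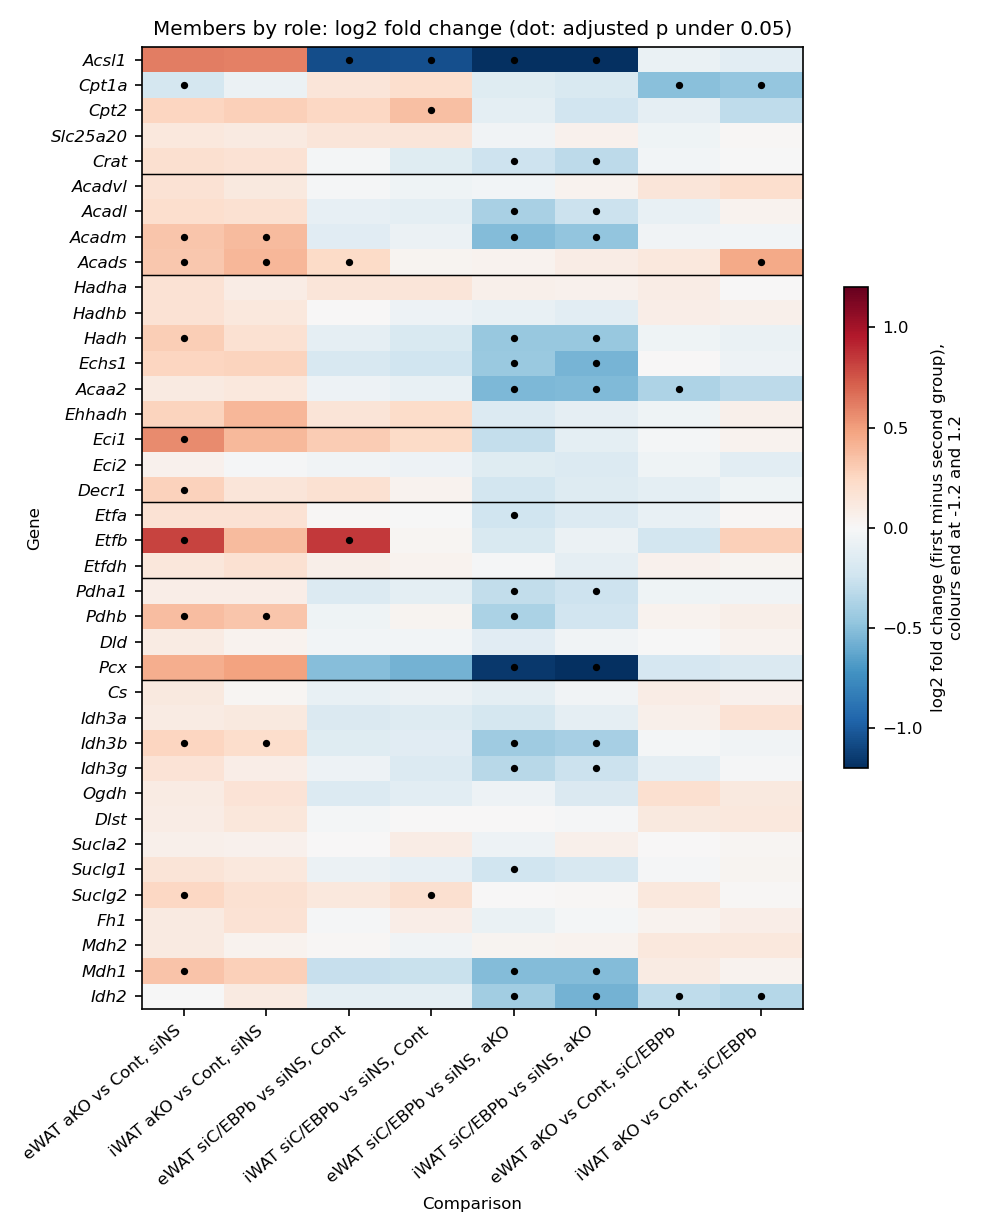
Log2 fold change of the 38 members (rows, grouped by role) in 8 comparisons (columns), from edgeR on gene counts of 24 libraries; red is higher in the group named first, blue is lower, colours end at ±1.2, and a dot marks an adjusted p under 0.05. Most members are pale red in aKO against Cont with siNS, and the dots with siC/EBPb lie mainly in the aKO columns, with Acsl1 and Pcx the darkest.

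With siNS, the question was whether the aKO genotype goes with other levels of the oxidation enzymes than Cont. In eWAT, 10 members rose and 1 fell in aKO against Cont, by edgeR's quasi-likelihood test with Benjamini-Hochberg adjustment over 14785 genes at a threshold of 0.05. That was 26.3% and 2.6% of the members, against 9.5% and 10.9% of all genes. The median log2 fold change of the members was 0.17 and 36 of 38 were above 0, while the median of all genes was 0.00 to 2 decimals. In iWAT 4 members rose and 0 fell, 10.5% and 0% of the members, against 7.32% and 7.85% of all genes, so this count was near the background. The iWAT median was 0.17, with 36 above 0 (0.18 and 37 without the shallow library). Both depots' rises included Acadm, Acads, Idh3b and Pdhb. Mature adipocyte markers were higher in the same groups: 7 of 20 rose in eWAT and 3 in iWAT (5 without the shallow library), with 0 falls. Of the 11 tested leukocyte markers 8 fell in eWAT and 6 in iWAT, with 0 rises. Endothelial markers had 5 falls and 1 rise among 9 in eWAT and 4 and 1 in iWAT, mesothelial ones 3 falls among 6 in each, and skeletal muscle ones 1 fall among 3 in each. The mesothelial sum was 25.7 to 26.2 CPM in eWAT Cont siNS and 6.09 to 7.84 in aKO siNS. Of 14 progenitor and fibroblast markers, 5 rose in eWAT and 4 in iWAT, and 1 fell in each. The adipocyte markers' summed level was 5902 to 8377 CPM in eWAT Cont siNS and 8144 to 10015 in aKO siNS, and 6622 to 9197 and 9248 to 11453 in iWAT. The part of these marker lists in the members' results was not tested, and in bulk libraries such as these, fewer cells of a type and less RNA per cell cannot be told apart. Sizes were small: apart from Etfb, Acsl1 and Eci1, no member differed by more than 0.44 in eWAT on the log2 scale. Libraries were also left out 1 at a time. Below, any 1 library, or every omission, covers the libraries of the compared groups and the shallow one.

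Among the acyl-CoA dehydrogenases, which take the first electrons from the fatty acyl chain, Acadm and Acads rose and Acadl and Acadvl did not pass the test. Acadm, the medium-chain enzyme, was at 48.9, 61.7 and 56.8 CPM in eWAT Cont siNS and at 62.8, 69.9 and 78.3 in aKO siNS. In iWAT it was at 50.5, 55.9 and 56.7 CPM in Cont and at 64.02, 57.4 and 78.9 in aKO. The groups did not overlap in either depot, and the lowest aKO library was close to the highest Cont library in both. The log2 fold change was 0.34 ± 0.10 (SE) in eWAT (adjusted p = 0.0164) and 0.38 ± 0.11 [0.39] in iWAT (adjusted p = 0.0203, edgeR quasi-likelihood, Benjamini-Hochberg). Both calls were lost without certain libraries: in eWAT without Cont siNS replicate 1 (adjusted p = 0.124) or aKO siNS replicate 3 (0.135), in iWAT without Cont siNS replicate 1 (0.117) or aKO siNS replicate 3 (0.362).

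Acads was at 29.97, 32.3 and 30.7 CPM in eWAT Cont siNS and at 37.7, 37.9 and 40.6 in aKO siNS. In iWAT the values were 27.5, 24.8 and 22.5 CPM in Cont and 32.8, 27.7 and 33.8 in aKO. Every aKO library lay above every Cont library of its depot. The log2 fold change was 0.32 ± 0.085 in eWAT (adjusted p = 0.00653), still called when any 1 library was left out, and 0.40 ± 0.10 [0.40] in iWAT (adjusted p = 0.00688), where the call was lost without aKO siNS replicate 3 (adjusted p = 0.0806, edgeR quasi-likelihood, Benjamini-Hochberg). Acadl, the long-chain enzyme, had 0.20 and 0.18 [0.19] in eWAT and iWAT, and Acadvl, the very-long-chain enzyme, 0.17 and 0.11 [0.17].

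Of the 6 genes of the hydratase, hydroxyacyl dehydrogenase and thiolase steps, Hadh was the 1 that rose, in eWAT. Hadh, the dehydrogenase for short and medium 3-hydroxyacyl-CoA, was at 52.2, 53.8 and 54.7 CPM in eWAT Cont siNS and 59.4, 66.02 and 71.8 in aKO siNS, without overlap, a log2 fold change of 0.30 ± 0.079 (adjusted p = 0.00723, edgeR quasi-likelihood, Benjamini-Hochberg). The call was lost without eWAT aKO siNS replicate 3 (adjusted p = 0.0819). Hadha and Hadhb, the subunits of the trifunctional protein that handles long chains, had 0.17 and 0.17 in eWAT and 0.092 [0.16] and 0.13 [0.14] in iWAT. Without the shallow library Hadha, Hadh and Echs1 passed in iWAT (adjusted p = 0.0424, 0.0302 and 0.0491, edgeR quasi-likelihood, Benjamini-Hochberg). Echs1, the short-chain hydratase, had 0.25 and 0.26 [0.30], Acaa2 0.11 and 0.12 [0.16], and Ehhadh 0.27 and 0.39 [0.42]. Ehhadh lies on chromosome 16 at a distance of 0.222 Mb from Senp2 and 1.359 Mb from Adipoq.

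Of the 3 enzymes that handle unsaturated chains, Eci1 and Decr1 rose in eWAT and none in iWAT. Eci1, an enoyl-CoA isomerase, was at 15.6, 18.7 and 15.3 CPM in Cont and 18.6, 25.4 and 29.4 in aKO in eWAT, with overlap, at 0.57 ± 0.14 (adjusted p = 0.00472). Decr1, the dienoyl-CoA reductase, was at 44.8, 48.7 and 47.1 CPM in Cont against 53.9, 57.3 and 59.3 in aKO, without overlap, at 0.28 ± 0.094 (adjusted p = 0.0354, edgeR quasi-likelihood, Benjamini-Hochberg). Eci1 lost the call without eWAT aKO siNS replicate 3 (adjusted p = 0.0616). Decr1 lost it without each of the 5 libraries other than aKO siNS replicate 1 (adjusted p from 0.0554 to 0.142). Eci2, another isomerase, had 0.050 in eWAT and -0.016 [0.0084] in iWAT.

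In the flavoprotein group Etfb was at 4.11, 4.95 and 3.42 CPM in eWAT Cont siNS and 7.70, 6.97 and 7.26 in aKO siNS, the largest difference of a member in this comparison at 0.81 ± 0.17 (adjusted p = 6.54e-04), still called when any 1 library was left out. In iWAT it was at 5.84, 7.52 and 5.65 CPM in Cont and 8.35, 11.9 and 7.99 in aKO, also without overlap, at 0.38 ± 0.18 [0.36] (adjusted p = 0.164, edgeR quasi-likelihood, Benjamini-Hochberg), which did not pass. The eWAT Cont siNS libraries were the lowest for Etfb in the series. Etfa had 0.17 and 0.17 [0.21], and Etfdh 0.14 and 0.18 [0.20].

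Fatty acid activation and the carnitine shuttle showed no rise that passed. Acsl1 was at 188, 252 and 214 CPM in eWAT Cont siNS and 289, 337 and 372 in aKO siNS, and in iWAT at 186, 266 and 221 CPM in Cont against 306, 295 and 397 in aKO. The groups did not overlap in either depot, but the replicates within a group were spread, and the log2 fold changes of 0.61 ± 0.27 and 0.60 ± 0.28 [0.64] had adjusted p = 0.127 and 0.177 (edgeR quasi-likelihood, Benjamini-Hochberg). Cpt1a, which makes the carnitine ester at the outer membrane, moved the other way. It was at 88.6, 90.3 and 106 CPM in eWAT Cont siNS and 78.5, 85.6 and 82.2 in aKO siNS, and fell by 0.21 on the log2 scale (adjusted p = 0.0495), a call lost without each of the 5 libraries other than Cont siNS replicate 1 (adjusted p from 0.0514 to 0.343). In iWAT its log2 fold change was -0.075 [-0.069]. Cpt2 had 0.26 and 0.29 [0.30], Slc25a20, the carnitine carrier, 0.13 and 0.10 [0.13], and Crat, carnitine acetyltransferase, 0.19 and 0.17 [0.18].

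At the entry of pyruvate, Pdhb rose in both depots. It was at 59.5, 66.3 and 64.4 CPM in eWAT Cont siNS and 71.7, 81.4 and 92.1 in aKO siNS, and in iWAT at 56.8, 58.4 and 67.4 CPM in Cont against 70.9, 63.3 and 83.4 in aKO. The eWAT groups did not overlap; in iWAT the shallow library lay within the Cont range. The log2 fold change was 0.37 ± 0.083 (adjusted p = 0.00170), still called when any 1 library was left out, and 0.33 ± 0.093 [0.34] in iWAT (adjusted p = 0.0147, edgeR quasi-likelihood, Benjamini-Hochberg), lost without Cont siNS replicate 1 or 2 or aKO siNS replicate 3 (adjusted p from 0.0718 to 0.312). Pdha1 had 0.081 and 0.081 [0.17], and Dld, the E3 subunit shared with oxoglutarate dehydrogenase, 0.10 and 0.045 [0.13]. Without the shallow library Pdha1 passed in iWAT (adjusted p = 0.0488, edgeR quasi-likelihood, Benjamini-Hochberg). Pcx was at 204, 281 and 261 CPM in eWAT Cont siNS and 301, 333 and 376 in aKO siNS, without overlap, yet its 0.44 ± 0.21 did not pass (adjusted p = 0.157); iWAT had 0.48 ± 0.22 [0.47] (adjusted p = 0.154, edgeR quasi-likelihood, Benjamini-Hochberg).

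In the citric acid cycle itself, eWAT had 3 rises among 13 genes and iWAT had 1. Idh3b, a subunit of the NAD-dependent isocitrate dehydrogenase, was at 80.9, 79.9 and 78.5 CPM in eWAT Cont siNS and 84.7, 96.5 and 105 in aKO siNS, and in iWAT at 81.3, 76.9 and 82.5 CPM in Cont against 90.3, 96.9 and 94.6 in aKO. Groups did not overlap in either depot. Its log2 fold change was 0.26 ± 0.065 (adjusted p = 0.00451) and 0.21 ± 0.072 [0.20] (adjusted p = 0.0468), lost in eWAT without aKO siNS replicate 3 (0.0726) and in iWAT without each library but the shallow one (adjusted p from 0.0693 to 0.247, edgeR quasi-likelihood, Benjamini-Hochberg). Its partners Idh3a and Idh3g had 0.10 and 0.17 in eWAT.

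Mdh1 was at 126, 138 and 129.7 CPM in eWAT Cont siNS and 146, 168 and 184 in aKO siNS, without overlap, at 0.34 ± 0.12 (adjusted p = 0.0394). In iWAT it was at 123, 143 and 128 CPM in Cont and 164, 75.2 and 182 in aKO, where the shallow library was the lowest of the 6 and the other 2 the highest, and the 0.29 ± 0.13 [0.39] did not pass (adjusted p = 0.131); leaving out that library gave a call (adjusted p = 9.64e-04, edgeR quasi-likelihood, Benjamini-Hochberg). Mdh1 lost the eWAT call without each library but aKO siNS replicate 1 (adjusted p from 0.0615 to 0.210). Suclg2, a subunit of succinyl-CoA synthetase, had 0.25 ± 0.067 in eWAT (adjusted p = 0.00785) and lost the call without Cont siNS replicate 1 (0.0574). The other members of the cycle did not pass in either depot and lay between -0.0051 (Idh2) and 0.17 (Idh3g) in eWAT.

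Single libraries moved these counts. In eWAT 4 members were called without aKO siNS replicate 3, 7 without Cont siNS replicate 1, and 12 without aKO siNS replicate 1; Acads, Etfb and Pdhb were called under every omission of a library of the 2 groups. With the shallow iWAT library, which is in neither eWAT group, left out of the fit, 17 were called, against 12.7% and 13.1% of all genes in the 2 directions. In iWAT the count was 0 without aKO siNS replicate 3, 1 without Cont siNS replicate 1, 2 without Cont siNS replicate 2, and 12 without the shallow library (against 8.96% and 9.42% of all genes), which added Hadha, Hadh, Echs1, Etfdh, Suclg2, Fh1, Mdh1 and Pdha1; 0 members were called under every omission. Of all genes, 13.9% to 17.6% were called in eWAT in either direction when a library of the compared groups was left out, and 9.5% to 18.4% in iWAT.

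**Figure D2:**
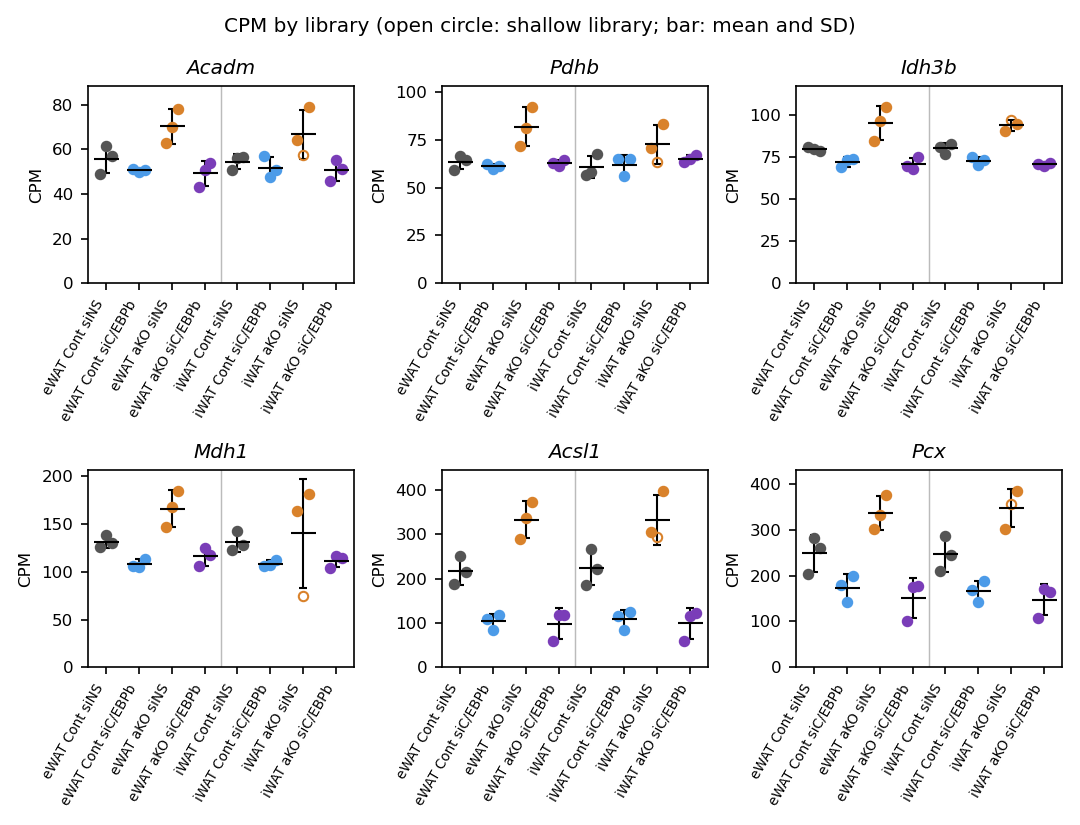
CPM of Acadm, Pdhb, Idh3b, Mdh1, Acsl1 and Pcx in each library by group (points; bars are the mean and SD of 3 libraries; the open circle is the shallow library iWAT aKO siNS replicate 2). The aKO siNS means stand highest in both depots and those with siC/EBPb lower, most of all for Acsl1, at 58.7 to 125 CPM against 186 to 397 with siNS.

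With siC/EBPb in Cont cells few members passed. In eWAT 2 rose and 1 fell, 5.3% and 2.6% of the members, while 11.8% of all genes rose and 14.9% fell, and the members' median was -0.03. In iWAT 2 rose and 1 fell, the same shares, against 10.3% and 14% of all genes, with a median of -0.05. In both depots the members' shares were below those of all genes. These comparisons share the Cont siNS libraries with the genotype comparisons. Mature adipocyte markers fell more widely, 9 of 20 in each depot with 2 rising in eWAT and 1 in iWAT, and their summed level with siC/EBPb was 3861 to 4874 CPM in eWAT and 4262 to 5524 in iWAT. All 11 tested leukocyte markers (14 listed, Cd3e at 0 in all groups) also fell, from a summed 1949 to 2725 CPM in eWAT Cont siNS to 376 to 448. Of 6 mesothelial markers 3 rose in each depot, with 1 falling in eWAT and 2 in iWAT; of 3 skeletal muscle markers 2 rose in eWAT and 1 in iWAT. Endothelial markers had 2 rises and 1 fall among 9 in each depot, and 3 of 14 progenitor and fibroblast markers rose in each, while 4 fell in eWAT and 5 in iWAT. The part of these markers in the members' results was not tested.

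Acsl1 fell in both depots. In eWAT Cont cells it was at 188, 252 and 214 CPM with siNS and 109, 84.9 and 118 with siC/EBPb, a log2 fold change of -1.07 ± 0.27 (adjusted p = 0.00683), and in iWAT at 186, 266 and 221 CPM with siNS against 115, 85.2 and 125 with siC/EBPb, at -1.05 ± 0.27 (adjusted p = 0.00915, edgeR quasi-likelihood, Benjamini-Hochberg). No siC/EBPb library reached an siNS library, and both calls held when any 1 library was left out. Pcx lay lower without overlap too, at 179, 143 and 200.2 CPM in eWAT Cont siC/EBPb, but -0.51 ± 0.21 and -0.57 ± 0.21 did not pass (adjusted p = 0.0776 and 0.0564). Mdh1 was also lower without overlap in both depots, at -0.28 and -0.27, and did not pass (adjusted p = 0.0883 and 0.109).

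The members that rose were Etfb and Acads in eWAT and Cpt2 and Suclg2 in iWAT. In eWAT Etfb was at 7.80, 7.81 and 6.86 CPM with siC/EBPb against 4.11, 4.95 and 3.42 with siNS, at 0.84 ± 0.16 (adjusted p = 2.12e-04), still called when any 1 library was left out; in iWAT it was 0.026. Acads had 0.23 ± 0.085 in eWAT (adjusted p = 0.0419, edgeR quasi-likelihood, Benjamini-Hochberg), lost without each library but Cont siC/EBPb replicate 2 (adjusted p from 0.0640 to 0.182). In iWAT Cpt2, the inner-membrane carnitine palmitoyltransferase, was at 39.1, 47.3 and 42.2 CPM with siNS and 54.1, 53.3 and 57.8 with siC/EBPb, without overlap, at 0.36 ± 0.11 (adjusted p = 0.0136), lost without Cont siNS replicate 1 or Cont siC/EBPb replicate 3 (adjusted p from 0.0736 to 0.0984). Suclg2 rose there by 0.19 ± 0.069 (adjusted p = 0.0446), lost without Cont siNS replicate 1 or 2 or Cont siC/EBPb replicate 2 or 3 (adjusted p from 0.127 to 0.218). Without Cont siC/EBPb replicate 3 the iWAT count was 1, and without the shallow library both depots had 7, below the 31.7% and 29.1% of all genes called in those fits in eWAT and iWAT. In eWAT 3 of the 7 rose and 4 fell, and in iWAT 4 rose and 3 fell. The difference of the siRNA effect between depots was tested itself: 0 members passed, against 0% of all genes in either direction, with 0 above and 1 below 0 at an unadjusted p under 0.05 (all genes 1.0% and 1.9%) and 0 by DESeq2.

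In aKO cells many members fell with siC/EBPb and none rose. In eWAT 16 fell and 0 rose, 42.1% and 0% of the members, against 19.1% of all genes that fell and 16.6% that rose. The members' median was -0.20, and 33 of 38 were below 0. In iWAT 13 fell and 0 rose, 34.2% and 0% of the members, against 17.7% and 13.6% of all genes, with a median of -0.17 (-0.20 without the shallow library). For these and the genotype comparisons with siNS the aKO siNS libraries are shared, so the falls here and the rises there are not independent. In the same comparisons 16 of 20 mature adipocyte markers fell and 1 rose in each depot, with summed levels of 2773 to 5053 CPM in eWAT and 2956 to 5536 in iWAT with siC/EBPb. All 11 tested leukocyte markers fell too, to a summed 93.4 to 199 CPM in eWAT, from 1547 to 1621 with siNS. Progenitor and fibroblast markers had 7 falls and 2 rises among 14 in eWAT and 8 and 1 in iWAT, endothelial ones 2 falls and 1 rise among 9 in eWAT and 3 and 1 in iWAT, and mesothelial ones 0 of 6 in either direction in each. Of 3 skeletal muscle markers 2 rose in each depot. The part of these lists in the members' falls was not tested.

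Acsl1 was at 289, 337 and 372 CPM in eWAT aKO siNS and 58.7, 119 and 119 with siC/EBPb, and in iWAT at 306, 295 and 397 with siNS against 58.7, 116 and 123 with siC/EBPb. Replicate 1 of aKO siC/EBPb in each depot was lower than every other library of the series for this gene, and these 2 libraries also had the lowest summed adipocyte marker levels, 2773 CPM in eWAT and 2956 in iWAT. The log2 fold change was -1.75 ± 0.27 in eWAT (adjusted p = 6.55e-05) and -1.78 ± 0.29 [-1.84] in iWAT (adjusted p = 1.02e-04, edgeR quasi-likelihood, Benjamini-Hochberg). Pcx was at 301, 333 and 376 CPM with siNS against 102, 174 and 178 with siC/EBPb in eWAT, and at 302, 356 and 385 against 108, 171 and 164 in iWAT, with the same replicate lowest, at -1.15 ± 0.21 (adjusted p = 2.23e-04) and -1.23 ± 0.22 [-1.22] (adjusted p = 2.24e-04). The groups of both genes were separate in both depots, and the falls were still called when any 1 library was left out. Acsl1 is itself on the list of mature adipocyte markers.

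In the beta-oxidation spiral the falls lay at Acadm, Acadl, Hadh, Echs1 and Acaa2 in both depots. Acadm was at 43.1, 50.5 and 53.96 CPM in eWAT aKO siC/EBPb, below every aKO siNS library, at -0.52 ± 0.10 (adjusted p = 1.69e-04). Hadh was at 43.1, 51.4 and 49.8 CPM, also below all siNS libraries, at -0.45 ± 0.080 (adjusted p = 4.64e-05). Echs1 was at 51.2, 69.96 and 58.7 CPM, at -0.44 ± 0.10 (adjusted p = 9.23e-04, edgeR quasi-likelihood, Benjamini-Hochberg). Acaa2 was at 36.6, 37.2 and 44.4 CPM with siNS and 22.7, 31.4 and 27.6 with siC/EBPb, at -0.54 ± 0.11 (adjusted p = 3.39e-04), and Acadl had -0.39. In iWAT the values were -0.48 [-0.50] for Acadm, -0.45 [-0.50] for Hadh, -0.56 [-0.60] for Echs1, -0.53 [-0.58] for Acaa2 and -0.25 [-0.28] for Acadl. In iWAT the shallow aKO siNS library lay below every siC/EBPb library for Hadh (64.5, 35.6 and 68.6 CPM in aKO siNS against 46.8, 48.5 and 46.2) and Acaa2 (40.6, 19.8 and 47.5 against 27.1, 31.2 and 30.9). Without it both were called (adjusted p = 1.52e-06 and 8.35e-05, edgeR quasi-likelihood, Benjamini-Hochberg). Hadh and Echs1 were still called in both depots when any 1 library was left out. Acadm, Acadl and Acaa2 lost the iWAT call without aKO siNS replicate 3 (adjusted p = 0.0813, 0.527 and 0.0696), and Acadl also without aKO siC/EBPb replicate 1 (adjusted p = 0.208).

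The remaining shuttle and flavoprotein members changed less. Crat fell in both depots, at -0.25 and -0.31 [-0.33], and lost the eWAT call without aKO siNS replicate 3 or aKO siC/EBPb replicate 1 (adjusted p from 0.119 to 0.137), the iWAT call without aKO siNS replicate 1 or 3 or aKO siC/EBPb replicate 1 (adjusted p from 0.0505 to 0.0603, edgeR quasi-likelihood, Benjamini-Hochberg). Etfa fell in eWAT at -0.24, lost without aKO siNS replicate 2 or 3 or aKO siC/EBPb replicate 1 (adjusted p from 0.0523 to 0.128). Cpt1a, Cpt2 and Slc25a20 had -0.15, -0.12 and -0.039 in eWAT and did not pass.

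In pyruvate entry and the cycle, Idh2, Idh3b, Idh3g, Mdh1, Pdha1 and Pcx fell in both depots, and Pdhb and Suclg1 in eWAT. Idh2 was at 45.03, 45.03 and 53.1 CPM in eWAT aKO siNS and 31.7, 40.9 and 34.9 with siC/EBPb, and at 41.6, 53.4 and 46.2 against 26.02, 34.6 and 29.1 in iWAT, without overlap, at -0.42 ± 0.094 and -0.57 ± 0.11 [-0.56] (adjusted p = 8.58e-04 and 1.48e-04). Idh3b was at 69.6, 68.1 and 75.2 CPM in eWAT and 70.6, 69.9 and 71.2 in iWAT with siC/EBPb, also without overlap, at -0.43 ± 0.065 and -0.40 ± 0.072 [-0.40] (adjusted p = 6.33e-06 and 7.97e-05, edgeR quasi-likelihood, Benjamini-Hochberg). Mdh1 was at 106, 125 and 118 CPM in eWAT, below all siNS libraries, with a log2 fold change of -0.52 there and -0.52 [-0.64] in iWAT. Pdhb had -0.38 in eWAT and -0.23 [-0.26] in iWAT, where it did not pass. Idh3g had -0.33 and -0.26 [-0.31], Pdha1 -0.30 and -0.24 [-0.35], and Suclg1 -0.24 and -0.19 [-0.25]. For Idh3g, Mdh1 and Pdha1, and for Echs1 above, the shallow iWAT aKO siNS library lay below the lowest of the 8 group means. These means were 46.8 CPM (eWAT aKO siC/EBPb), 108 (eWAT Cont siC/EBPb), 187 (eWAT aKO siC/EBPb) and 54.1 (iWAT aKO siC/EBPb). Suclg1 lost the eWAT call without aKO siNS replicate 3 (adjusted p = 0.0592), and in iWAT Mdh1 lost it without that replicate (0.0654), Idh3g without 4 of the 6 libraries (adjusted p from 0.110 to 0.373) and Pdha1 without 4 (adjusted p from 0.0935 to 0.369).

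In eWAT 13 of the 16 falls were called under every omission of a library, and in iWAT 6 of 13, namely Hadh, Echs1, Acsl1, Idh2, Idh3b and Pcx. The iWAT count was 6 without aKO siNS replicate 3 and 20 without the shallow library; the eWAT count was also 20 without the shallow one. In either direction 23.9% of all genes were called in iWAT without aKO siNS replicate 3, and without the shallow library 22.6% of all genes were lower in eWAT and 19.9% in iWAT. The iWAT falls added without it were those of Eci2, Cpt1a, Etfa, Cs, Ogdh, Suclg1 and Pdhb.

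**Figure D3:**
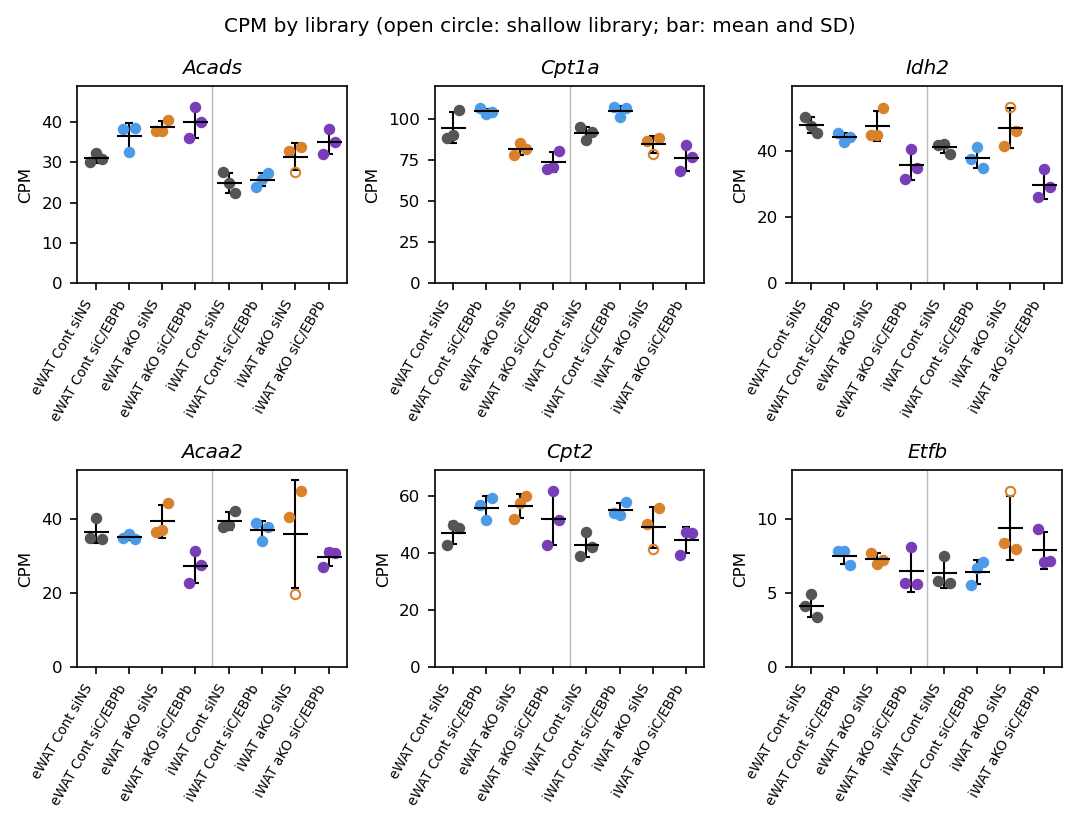
CPM of Acads, Cpt1a, Idh2, Acaa2, Cpt2 and Etfb in each library by group (points; bars are the mean and SD of 3 libraries; the open circle is the shallow library). Cpt1a is lowest in aKO with siC/EBPb, at 68.3 to 84.4 CPM against 102 to 108 in Cont with siC/EBPb, Idh2 falls with siC/EBPb in aKO, and Etfb is lowest in eWAT Cont siNS, at 3.42 to 4.95.

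Whether the siRNA effect differed between genotypes was tested as the difference of the 2 effects, aKO minus Cont. In eWAT 0 members were higher and 1 lower, against 3.01% and 3.33% of all genes, although 35 of 38 were below 0 with a median of -0.23, and 15 (39.5%) were lower at an unadjusted p under 0.05, against 11.3% of all genes. In iWAT 0 were higher and 1 lower, against 1.32% and 2.19%, with 33 below 0, a median of -0.15 (36 and -0.18 without the shallow library), and 9 (23.7%) lower at an unadjusted p under 0.05, against 9.7% of all genes. The aKO siNS libraries enter this difference with a minus sign for every member. Etfb was the eWAT call, at -1.02 ± 0.23 (adjusted p = 0.00572, edgeR quasi-likelihood, Benjamini-Hochberg), called under every omission of 1 library; it rose with siC/EBPb in Cont cells by 0.84 and had -0.18 in aKO cells. Cpt2 was the iWAT call, at -0.60 ± 0.16 [-0.61] (adjusted p = 0.0320), with 0.36 in Cont and -0.23 [-0.26] in aKO cells. That call was lost without 8 of the 12 libraries (adjusted p from 0.0536 to 0.164), namely the 3 Cont siC/EBPb libraries, Cont siNS replicates 1 and 3, aKO siC/EBPb replicate 1 and aKO siNS replicates 1 and 3. Acsl1 had the largest size in iWAT at -0.73 ± 0.40 [-0.78] and -0.69 ± 0.38 in eWAT, and did not pass (adjusted p = 0.381 and 0.337). The eWAT count was 5 without aKO siC/EBPb replicate 2 or aKO siNS replicate 1, 3 without aKO siC/EBPb replicate 3, 2 without Cont siNS replicate 2 or 3, and 7 without the shallow library, where 6.1% of all genes were lower. The iWAT count was 3 without aKO siC/EBPb replicate 2 or the shallow library, where 3.75% of all genes were lower in the latter fit, and 0 without any of the 8 libraries named.

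With siC/EBPb in both genotypes, aKO and Cont differed in few members. In eWAT 0 rose and 3 fell, against 3.9% and 6.87% of all genes. In iWAT 1 rose and 2 fell, against 3.52% and 6.51%. Cpt1a was at 107, 104 and 104 CPM in eWAT Cont and 69.97, 71.3 and 80.9 in aKO, and at 108, 102 and 107 against 68.3, 84.4 and 76.9 in iWAT, without overlap, at -0.50 ± 0.076 (adjusted p = 3.25e-05) and -0.46 ± 0.076 (adjusted p = 1.34e-04, edgeR quasi-likelihood, Benjamini-Hochberg), still called when any 1 library was left out. Idh2 was lower in both, at -0.31 and -0.34, and Acaa2 at -0.37 in eWAT, against -0.31 in iWAT, which did not pass. Acads was higher in iWAT, at 23.96, 25.8 and 27.3 CPM in Cont and 32.1, 38.2 and 35.03 in aKO, without overlap and at 0.45 ± 0.090 (adjusted p = 9.89e-04), and 0.13 in eWAT. The eWAT falls of Acaa2 and Idh2 were lost without each of 5 libraries of the 6 (adjusted p from 0.0666 to 0.230 and 0.0548 to 0.225), all but aKO siC/EBPb replicate 2, so the eWAT count came to 1 there. Idh2 in iWAT was lost without Cont siC/EBPb replicates 1 or 2 or aKO siC/EBPb replicates 1 or 3 (adjusted p from 0.0580 to 0.202), and without the shallow library 5 members were called in iWAT, the same share as the 13.2% of all genes called there.

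Between depots no member passed the test: 0 were higher and 0 lower in iWAT than eWAT in Cont siNS, by edgeR's quasi-likelihood test, against 0.69% and 0.514% of all genes. The test did not pair the same-numbered libraries of the depots. At an unadjusted p under 0.05, 3 were higher and 3 lower, 7.9% each and near the 6.9% and 8.2% of all genes, and DESeq2 called 0. The fitted differences ranged from -0.30 (Acads) to 0.61 (Etfb), with a median SE of 0.088. Without the shallow library, Acads was lower in iWAT at -0.30 and Etfb higher at 0.61 (adjusted p = 0.0343 and 0.0291, edgeR quasi-likelihood), 2.6% of the members in each direction, below the 3.61% of all genes that were lower and 3.89% that were higher in that fit. For the difference of the genotype effect with siNS between depots, 0 members passed by edgeR's quasi-likelihood test, against 0% of all genes, with 0 at an unadjusted p under 0.05 in each direction (all genes 1.2% and 1.7%) and 0 by DESeq2.

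Other genes of the pathways, taken from textbook knowledge, are given as counts and as values for those named. Of 39 tested genes of other fatty acid oxidation steps (41 listed), eWAT aKO cells with siNS had 13 rises and 2 falls and iWAT ones 8 and 1. With siC/EBPb in aKO cells there were 1 rise and 19 falls in eWAT, and 0 and 19 in iWAT. Of 39 other pyruvate and cycle genes there were 15 rises and 3 falls by genotype with siNS in eWAT, 9 and 3 in iWAT, and 5 and 18 with siC/EBPb in eWAT aKO cells, 5 and 16 in iWAT. Of all genes, 9.5% rose and 10.9% fell by genotype with siNS in eWAT, and 7.32% and 7.85% in iWAT. With siC/EBPb in aKO cells 16.6% of all genes rose and 19.1% fell in eWAT, and 13.6% and 17.7% in iWAT. Without the shallow library the rises by genotype came to 20 and 14 for the first list and 22 and 16 for the other, in eWAT and iWAT. In those fits 12.7% and 8.96% of all genes were higher. Pdk4, the kinase that inactivates pyruvate dehydrogenase, was higher in aKO siNS at 0.68 ± 0.10 and 0.65 ± 0.11 [0.66] and lower with siC/EBPb in aKO at -1.07 ± 0.10 and -1.01 ± 0.11 [-1.04]. The phosphatase that reactivates it, Pdp1, was at 26.4, 26.7 and 23.6 CPM in eWAT Cont siNS, 31.6, 36.6 and 36.3 in aKO siNS and 20.9, 21.5 and 23.9 in aKO siC/EBPb, with 0.45 ± 0.10 and 0.64 ± 0.11 [0.67] by genotype and -0.95 ± 0.14 in the eWAT genotype-by-siRNA difference. Pdp1 was still called in these 3 tests when any 1 library was left out. The lactate dehydrogenase subunit Ldhb rose at 0.64 and 0.57 [0.60] by genotype and fell at -0.75 and -0.72 [-0.77] with siC/EBPb in aKO, and Pdk1 fell at -0.60 and -0.53 [-0.50] by genotype. Slc27a1, a fatty acid transport protein, and Acacb, which makes the malonyl-CoA that inhibits Cpt1a, fell with siC/EBPb in aKO at -1.74 and -2.04 [-1.94], and at -0.91 and -1.29 [-1.21].

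Of 18 tested regulators of oxidation genes (20 listed), eWAT aKO cells with siNS had 5 rises and 1 fall and iWAT ones 6 and 0. With siC/EBPb in aKO cells there were 9 falls in eWAT, 8 in iWAT and 0 rises. Of all genes, 9.5% rose and 10.9% fell by genotype with siNS in eWAT, and 7.32% and 7.85% in iWAT. With siC/EBPb in aKO cells 16.6% of all genes rose and 19.1% fell in eWAT, and 13.6% and 17.7% in iWAT. Ppargc1a, a coactivator that raises the expression of oxidation genes in brown fat, was at 0.684, 0.475 and 0.641 CPM in eWAT Cont siNS and 2.46, 1.96 and 2.66 in aKO siNS, and at 0.411, 0.693 and 0.241 against 2.93, 1.98 and 2.97 in iWAT. It was low in all groups, and Cont and aKO did not overlap with siNS, with log2 fold changes of 1.96 ± 0.30 and 2.65 ± 0.39 [2.66] by genotype and -1.80 ± 0.29 and -1.83 ± 0.30 [-1.85] with siC/EBPb in aKO. The iWAT aKO value of 1.98 CPM is that of the shallow library, whose effective size was 505624, so it rests on few reads. The named fold changes of Ppargc1a, and those of Pdk4 and Ldhb by genotype, were still called when any 1 library was left out. Rxra, the partner of PPAR receptors, rose at 0.42 and 0.38 [0.37] and fell at -0.45 and -0.54 [-0.55].

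**Figure D4:**
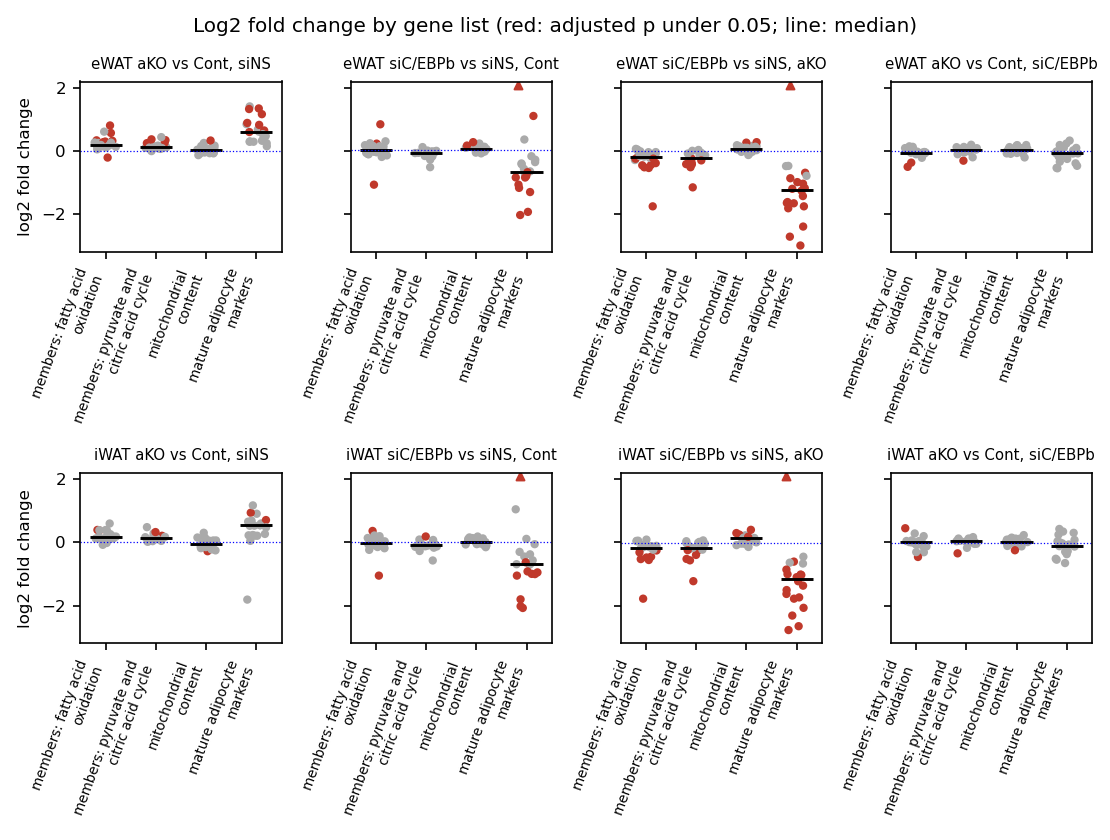
Log2 fold change of each gene (points) in the 8 comparisons for the fatty acid oxidation members, the pyruvate and citric acid cycle members, mitochondrial content genes and mature adipocyte markers; the black line is the list's median, the dotted blue line that of all tested genes, and a triangle marks Pck1, beyond the axis. Adipocyte markers lie furthest from 0, with medians of 0.61 and 0.54 by genotype with siNS and of -1.23 and -1.16 with siC/EBPb in aKO. Mitochondrial content has medians of 0.02 and -0.05 by genotype with siNS and of 0.06 and 0.13 with siC/EBPb in aKO.

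With siC/EBPb in both genotypes 0 of the 20 mature adipocyte markers passed in either direction between aKO and Cont in either depot, while of 11 leukocyte markers 11 fell in eWAT and 10 in iWAT. Mesothelial markers had 5 falls among 6 in eWAT and 4 in iWAT, with medians of -2.84 and -2.06, endothelial ones 4 and 6 falls among 9, and progenitor and fibroblast ones 4 falls and 1 rise among 14 in each. Skeletal muscle markers had 1 rise and 1 fall among 3 in each. For all genes the shares in these comparisons were 3.9% higher and 6.87% lower in eWAT, and 3.52% and 6.51% in iWAT. The part of these marker lists in the members' results was not tested. The members summed to 3111 to 3381 CPM in eWAT Cont siNS, 3522 to 4043 in aKO siNS and 2817 to 3087 in aKO siC/EBPb, without overlap between any of these 3 groups, while Cont siC/EBPb, at 2896 to 3078, overlapped aKO siC/EBPb. In iWAT the sums were 3162 to 3455 CPM in Cont siNS, 2838 to 4133 in aKO siNS, 2919 to 3138 in Cont siC/EBPb and 2900 to 3155 in aKO siC/EBPb. The iWAT aKO siNS range overlapped all the others, its lowest value being the shallow library. These sums weigh members of high CPM most. Without the shallow library, group means of Acsl1, also a mature adipocyte marker, ran from 98.8 CPM (eWAT aKO siC/EBPb) to 352 (iWAT aKO siNS). Those of Pcx ran from 148 (iWAT aKO siC/EBPb) to 343 (iWAT aKO siNS). The part of Acsl1 and Pcx in the differences between sums was not tested. Of 20 genes of mitochondrial content, which serve import, protein folding, fusion and DNA upkeep, 1 rose in eWAT and 1 fell in iWAT in aKO with siNS (3 rose in eWAT without the shallow library). Of all genes, 9.5% rose and 10.9% fell there in eWAT, and 7.32% and 7.85% in iWAT (12.7% rose in eWAT without the shallow library). With siC/EBPb in aKO cells 2 of the 20 rose in eWAT (4 without the shallow library) and 4 in iWAT, and 0 fell. In eWAT 16.6% of all genes rose and 19.1% fell (18.1% rose without the shallow library), and in iWAT 13.6% and 17.7%. The medians of the mitochondrial content genes in these comparisons lay between -0.05 and 0.13, against 0.17 for the members by genotype and -0.20 and -0.17 with siC/EBPb.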

How the data were processed

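Poly(A) RNA of 24 libraries was measured in 8 groups of 3, set by depot, genotype and siRNA in the labels. Per the labels' protocols, differentiation took 2 days in dexamethasone, insulin (0.1 mg/ml) and IBMX (0.5 mmol/l), followed by 5 days in 10% serum and insulin (1 µg/ml). Reads were trimmed with cutadapt 2.7, aligned with TopHat2 2.1.1 to GRCm38 and counted with HTSeq, per the submitters' processing notes. The authors deposited whole-number counts per gene. The 5 counter lines, 27.5% to 39.5% of reads and 95.9% in the shallow library, were left out, and 0 columns of per-sample values were unmapped.

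Symbols came from GENCODE M21 (53360 of 53465 identifiers). In R 4.3.3, edgeR 4.0.16 kept 14785 genes (filterByExpr, minimum count 10), scaled by TMM (0.985 to 1.04, shallow library 0.840), and fitted 1 mean per group to all libraries; 13 contrasts were tested by the robust quasi-likelihood F test with Benjamini-Hochberg adjustment per contrast. Fold changes are log2 ± SE. CPM used TMM library sizes, and RPKM the median transcript length of protein-coding transcripts. The sources give no model, so this one is a choice of the re-analysis. On simulated counts for aKO against Cont with siNS in eWAT (14460 genes), the fit recovered 64 of 69 genes changed 1.5-fold, 73 of 73 changed 2-fold and 58 of 58 changed 4-fold, with 10 false calls. Changes below 1.5-fold, the size of most member differences in this comparison, were not simulated. Their recovery is therefore unknown, and a member not called may still have changed.

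The members, lists and tests were chosen with earlier results of these data known. Any member may be named, and of the other lists those past the threshold or among the 6 most expressed. Alternatives were DESeq2 1.42.0 (size factors and test), no filter, a stricter filter (at least 12 libraries with CPM of 1 or more), a model of the compared groups only, a block for the replicate number, and each library left out. Each omission was read for the contrasts that use the group of that library. The fits without the shallow library for contrasts that do not hold it were added after the data were seen. Same-numbered libraries of iWAT and eWAT Cont siNS deviated together (r = 0.270, 0.425 and 0.312 over 8159 genes), so these numbers were taken as pairs from the data; the labels do not say what they stand for. In the other contrasts tested this did not hold for every pair. Correlations of members with adipocyte markers, and comparisons of protein sequences, were not used here.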

Additional observations from a re-analysis of the deposited data

Results flagged for a closer look

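Etfb differed in its response to siC/EBPb between genotypes in eWAT, by a test of that difference. The test uses the eWAT Cont siNS libraries, the lowest for Etfb in the series, with a mean of 4.16 CPM. The Etfb genotype comparison with siNS in eWAT uses the same libraries. The difference was -1.02 ± 0.23 on the log2 scale (adjusted p = 0.00572, edgeR quasi-likelihood, Benjamini-Hochberg), from 0.84 in Cont cells and -0.18 in aKO cells, on counts of 47 to 122 per library outside the shallow one. In iWAT the same difference was -0.10 [-0.077] (in square brackets, without the shallow library).

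Cpt2 differed in the same test in iWAT, at -0.60 ± 0.16 [-0.61] (adjusted p = 0.0320, edgeR quasi-likelihood, Benjamini-Hochberg), from 0.36 in Cont cells and -0.23 [-0.26] in aKO cells. In eWAT the difference was -0.37 ± 0.14 and did not pass. The iWAT call was lost without each of 8 of its 12 libraries (adjusted p from 0.0536 to 0.164).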

How the results depend on the processing

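The counts of members called moved with several settings, and so did those of all genes. With no filter on low counts they were 8 for the iWAT genotype comparison with siNS, 6 for siC/EBPb in eWAT Cont cells, and 6 and 3 for the genotype-by-siRNA difference in eWAT and iWAT. With only the groups of a comparison in the model they were 19 and 0 for the genotype comparison with siNS in eWAT and iWAT, 12 and 10 for siC/EBPb in eWAT and iWAT Cont cells, 7 for siC/EBPb in iWAT aKO cells, 6 for genotype with siC/EBPb in iWAT, and 4 for the eWAT difference. In that setting 26.4% and 5.3% of all genes were called for genotype with siNS in eWAT and iWAT, 35.4% and 32.2% for siC/EBPb in Cont cells, 16.5% for siC/EBPb in iWAT aKO cells, 15.1% for genotype with siC/EBPb in iWAT and 10.0% for the eWAT difference. Without a filter they were 8.1%, 12.2%, 4.2% and 3.1% in the order named above. Without the shallow library they were 17 for the eWAT genotype comparison with siNS, 7 and 7 for siC/EBPb in eWAT and iWAT Cont cells, 5 for genotype with siC/EBPb in iWAT, 7 for the eWAT difference and 2 between depots, where 25.8%, 31.7%, 29.1%, 13.2%, 11.2% and 7.5% of all genes were called. Leaving out 1 library of the compared groups at a time gave these ranges, eWAT first, with the share of all genes called in parentheses. Genotype with siNS had 4 to 12 (13.9% to 17.6%) and 0 to 12 (9.5% to 18.4%). For siC/EBPb, aKO cells had 13 to 18 (28.6% to 33.0%) and 6 to 20 (23.9% to 34.7%). Cont cells had 2 to 3 (20.6% to 23.4%) and 1 to 3 (18.7% to 21.7%). Genotype with siC/EBPb had 1 to 3 (7.3% to 9.7%) and 2 to 3 (6.2% to 8.3%). The genotype-by-siRNA difference had 1 to 5 (2.9% to 7.2%) and 0 to 3 (1.9% to 6.3%). The cause of these changes was not tested.

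With a replicate block the counts were 15 and 5 for genotype with siNS, 5 and 3 for siC/EBPb in Cont cells, 17 and 15 in aKO cells, 4 and 4 for genotype with siC/EBPb, and 4 and 1 for the difference, in eWAT and iWAT. Of all genes, 20.7% and 15.7%, 26.9% and 24.5%, 35.7% and 31.2%, 11.2% and 10.3%, and 6.8% and 4.1% were called, in the same order. The block fits 1 effect per replicate number over all groups, so it is not a paired test of the depots. It changed no member call between depots, where the numbers were taken as pairs. Elsewhere the libraries share only a number. Of 21 member values called in the genotype comparisons with siNS and the siC/EBPb comparisons in Cont cells, 15 lost the call under at least 1 setting and 0 changed sign. Pdha1, not called, turned to -0.033 for genotype with siNS in iWAT without aKO siNS replicate 3, and was 0.17 without the shallow library. Depth limits Etfb and Ehhadh, the least expressed members, and all members in the shallow library, where their counts were 2 to 180.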
